A study of Mus musculus with 24 samples.

Results

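The MD time course is a set of 8 RNA sequencing libraries of whole back skin from mice that could eat only in the middle of the light phase, from ZT5 to ZT9 (ZT, hours since lights on). The libraries were those labelled MD in the series, 8 of its 24. They were sampled at ZT0, ZT4, ZT8, ZT12, ZT16, ZT20, ZT24 and ZT28, so that the last pair fell on the clock times of the first pair 24 h later. All mice were wild-type males of the inbred strain C57BL/6NCrl, aged about 8 weeks, with hair follicles in their resting stage, telogen, and the light was on for 12 h a day. Food was open for 4 h a day. The other 16 libraries came from the same kind of mice fed from ZT0 to ZT4 (ED) or from ZT12 to ZT16 (EN). They served here to estimate the spread around fitted curves, and also entered the scaling and the choice of genes tested. Each library was made from RNA pooled from 2 to 4 animals, and no sampling time had more than 1 library. The labels do not say whether different mice went into the pools of ZT24 and ZT28 and those of ZT0 and ZT4. All p-values thus reflect how pools scatter around the curves.

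The circadian clock of a cell is a loop of transcription factors. BMAL1 (gene Arntl), paired with CLOCK or NPAS2, switches on the Period and Cryptochrome genes, the nuclear receptor genes Nr1d1 and Nr1d2 and output factors such as Dbp. Period and Cryptochrome proteins then hold BMAL1 back, and the products of Nr1d1 and Nr1d2 repress Arntl, Npas2 and Nfil3 in the opposite part of the day. In skin, the clock runs in keratinocytes, fibroblasts and hair follicles, and it is known for timing cell division in the epidermis. Meal time is a strong signal for clocks outside the brain.

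Exon counts of the MD libraries ranged from 16569065 at ZT12 to 22634710 at ZT24. The defining genes of skin were present throughout: the basal keratinocyte list (Krt5, Krt14, Trp63 and others, 11 of 11 measured) summed to between 7251 and 8282 CPM (exon counts scaled to a common library size). Fast muscle genes were abundant too, as whole back skin carries a muscle layer, and Ttn, the giant muscle protein titin, was the symbol with the most counts in all 8 libraries (3.76% to 5.20% of exon counts). The hair shaft list, which marks growing follicles, summed to between 38.3 and 73.2 CPM over its 7 measured genes of 18. In pooled tissue, fewer cells of a type and less RNA per cell cannot be told apart. The ZT0 library stood apart in its fast muscle genes: the 15 summed to 16086 CPM there, against 25211 to 31176 CPM in the 7 others. Ttn (4.10% at ZT0) and the slow muscle list (275 CPM at ZT0) lay inside the ranges of the 7 others. The labels also give each library a run code, which was L1 for ZT0, ZT4 and ZT8, L2 for ZT12, ZT16 and ZT20, and L3 for ZT24 and ZT28. Within MD this code and the time of day cannot be told apart, other than through the repeated clock times.

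A 24 h rhythm was called for 148 of 15719 genes (0.942%) in MD skin, by edgeR's quasi-likelihood test with Benjamini-Hochberg adjustment over all genes and a threshold of 0.05. At an unadjusted p under 0.05 there were 2463 genes (15.7%). Amplitudes, measured from the mean of the fitted curve to its peak on the log2 CPM scale, had a median of 0.56 among the called genes and 0.15 among all genes. They ranged from 0.20 to 2.87, with 31 genes above 1 and 62 under 0.5. Other fits gave other counts: from the 8 MD libraries alone 23 genes were called (0.146%), 21 of them among the 148, and with the run code as a term 27 were called (0.172%), 19 of them among the 148. Leaving out 1 MD library at a time gave from 51 genes (0.324%, without ZT4) to 187 (1.19%, without ZT24), with 60 (0.382%) without ZT28, 67 (0.426%) without ZT12 and 91 (0.579%) without ZT0. The DESeq2 likelihood ratio test called 494 (3.14%), all 148 among them. A total of 29 genes were called in all 8 of these fits.

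Clock genes had the smallest p-values of the rhythmic set, with Dbp and Per3 first. Of the 25 genes in the 5 clock lists, all measured, 13 were called, against 0.942% of all genes. The count was 8 in the MD libraries alone, 4 with the run code as a term, and 10 to 13 when 1 library was left out, the lowest without ZT28. The peaks of the 12 described below ran from ZT1.44 to ZT17.6. Their order was Nr1d1, Nr1d2, Dbp, Bhlhe40, Per3, Bhlhe41, Tef, Per2, Cry1, Nfil3, Arntl and Npas2. In this order the peaks of Bhlhe40, Per3, Bhlhe41 and Tef differed from one to the next by less than their standard errors added, as did those of Arntl and Npas2, and the other neighbours were further apart than their standard errors added. Amplitudes and peak times below are from least squares on the 8 MD libraries, given with their standard errors, and each run of 8 values is in the order of sampling from ZT0 to ZT28.

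**Figure D1:**
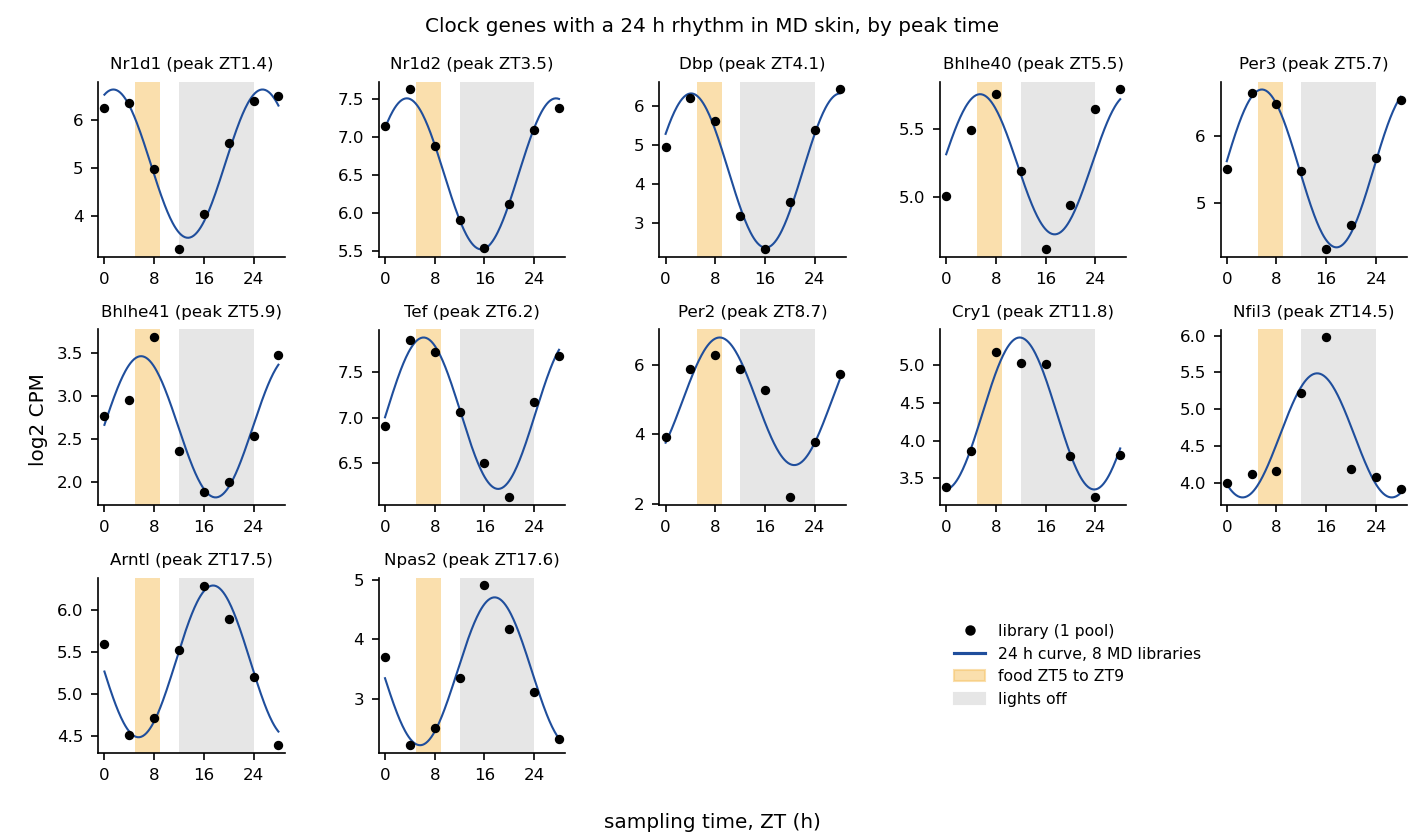
Level of 12 called clock genes in the 8 MD libraries (points, log2 CPM, 1 pool each) against sampling time in ZT hours, with the 24 h curve fitted to these libraries (line, fitted to log2 CPM with a prior count of 2); yellow marks the food window and grey the dark phase. The panels run in order of peak time from Nr1d1, at ZT1.44, to Npas2, at ZT17.6. Most ZT24 and ZT28 points fall near those of ZT0 and ZT4. Differences past 0.5 log2 were those of Bhlhe40 (0.64) and Npas2 (-0.59) at ZT24 against ZT0. At ZT28 against ZT4 only Bhlhe41 (0.52) was past 0.5 log2.

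Promoter sequences of 5 of these genes, with peaks from ZT5.65 to ZT17.5, are shown because their windows hold the letters of elements known from clock biology. These are the D-box TTANGTAA, bound by DBP, TEF and NFIL3, and the E-box CACGTG, bound by BMAL1 with its partner. The third is the element TAGGTCA, bound by the NR1D and ROR receptors (called RORE here). The genes shown were thus chosen for holding a match, and the windows of Npas2, Nr1d1, Nr1d2 and Dbp held none. Each window runs from 250 bases before to 50 after a RefSeq start on GRCm38.p6 and is read 5′ to 3′ on the gene's strand. Capitals mark the matches, searched on both strands.
Per3 promoter, chr4:151044616-151044915, minus strand: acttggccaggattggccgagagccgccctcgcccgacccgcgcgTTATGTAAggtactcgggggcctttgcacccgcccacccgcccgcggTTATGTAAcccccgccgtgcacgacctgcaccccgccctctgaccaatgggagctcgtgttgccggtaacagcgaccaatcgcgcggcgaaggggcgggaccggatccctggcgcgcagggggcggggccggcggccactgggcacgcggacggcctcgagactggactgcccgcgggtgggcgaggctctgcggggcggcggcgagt
Bhlhe41 promoter, chr6:145865371-145865670, minus strand: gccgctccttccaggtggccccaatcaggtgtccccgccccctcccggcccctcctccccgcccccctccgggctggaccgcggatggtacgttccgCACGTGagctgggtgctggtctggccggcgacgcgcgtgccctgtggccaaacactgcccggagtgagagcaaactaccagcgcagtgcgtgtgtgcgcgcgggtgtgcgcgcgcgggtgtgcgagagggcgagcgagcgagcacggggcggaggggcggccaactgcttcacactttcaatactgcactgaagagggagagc
Cry1 promoter, chr10:85185005-85185304, minus strand: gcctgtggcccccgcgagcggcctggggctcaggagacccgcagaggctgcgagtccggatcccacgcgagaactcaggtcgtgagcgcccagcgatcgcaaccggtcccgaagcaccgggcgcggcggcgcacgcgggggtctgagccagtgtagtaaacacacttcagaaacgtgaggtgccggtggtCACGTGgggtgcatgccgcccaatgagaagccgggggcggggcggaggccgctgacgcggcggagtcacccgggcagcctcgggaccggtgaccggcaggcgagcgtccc
Nfil3 promoter, chr13:52980990-52981289, minus strand: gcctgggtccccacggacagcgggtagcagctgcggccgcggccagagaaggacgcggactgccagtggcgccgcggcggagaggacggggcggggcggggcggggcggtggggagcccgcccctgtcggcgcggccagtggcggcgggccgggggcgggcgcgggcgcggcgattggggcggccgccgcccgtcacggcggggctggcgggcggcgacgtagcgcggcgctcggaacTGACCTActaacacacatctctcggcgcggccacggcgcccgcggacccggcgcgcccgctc
Arntl promoter, chr7:113207261-113207560, plus strand: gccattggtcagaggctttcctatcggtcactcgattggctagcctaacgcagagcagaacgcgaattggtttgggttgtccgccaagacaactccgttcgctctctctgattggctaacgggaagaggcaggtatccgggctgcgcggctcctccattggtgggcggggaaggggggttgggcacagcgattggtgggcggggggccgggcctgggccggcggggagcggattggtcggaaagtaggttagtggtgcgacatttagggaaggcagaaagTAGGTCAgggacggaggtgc
The Per3 window holds 2 D-box matches, the Bhlhe41 and Cry1 windows hold 1 E-box match each, and the Nfil3 and Arntl windows hold 1 RORE match each, in Nfil3 on the opposite strand. Windows were found for 10 of the 13 called clock genes (12 windows). Of these, 4 windows held an E-box, 1 a D-box and 2 an RORE. Over all genes tested, 9.36% of 15039 windows held an E-box, 1.57% a D-box and 1.99% an RORE. A match is a description of the letters in these windows.

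Among the activators, Npas2 and Arntl peaked together in the dark phase. Npas2, the partner of BMAL1 that can stand in for CLOCK (chr1:39193702-39363240), had 13.1, 4.63, 5.64, 10.2, 29.9, 18.0, 8.62 and 5.01 CPM. It was high at ZT16 and ZT20 and lowest at ZT4 and ZT28. Its amplitude was 1.24 ± 0.15 and its peak at ZT17.6 ± 0.46 h (edgeR adjusted p = 9.37e-06). Arntl, the gene of BMAL1 (chr7:113178471-113314126), had 48.4, 22.9, 26.3, 46.1, 77.8, 59.2, 36.9 and 21.0 CPM. The ZT16 library was the highest and the ZT28 library the lowest, with an amplitude of 0.90 ± 0.10 and a peak at ZT17.5 ± 0.42 h (edgeR adjusted p = 0.000585). Clock itself ranged only from 93.7 to 133 CPM, with an edgeR adjusted p of 0.446, and the related Arntl2 from 7.44 to 10.9 CPM (edgeR adjusted p = 0.870).

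The NR1D receptors peaked in the first hours after lights on, when the activators were falling or low. Nr1d1, which encodes the repressor REV-ERBα (chr11:98767932-98775377), had 75.3, 81.4, 31.6, 9.88, 16.4, 45.9, 83.1 and 89.6 CPM. It was low at ZT12 and ZT16 and high around lights on, with an amplitude of 1.54 ± 0.13 and a peak at ZT1.44 ± 0.34 h (edgeR adjusted p = 8.68e-07). Nr1d2, its paralog REV-ERBβ (chr14:18204056-18239106), had 142, 198, 119, 60.0, 46.3, 69.4, 136 and 167 CPM. Its trough lay at ZT16 and its peak at ZT3.51 ± 0.16 h, with an amplitude of 1.00 ± 0.04 (edgeR adjusted p = 1.72e-06). Rora and Rorb, receptors that activate through the same elements, were not called (edgeR adjusted p = 0.738 and 0.678).

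Period and Cryptochrome genes followed later in the light phase. Per3 (chr4:150997018-151044707) had 45.3, 99.8, 89.0, 44.4, 19.7, 25.4, 51.1 and 92.8 CPM, with an amplitude of 1.18 ± 0.06 and a peak at ZT5.65 ± 0.18 h (edgeR adjusted p = 4.92e-07). Per2, a main repressor of the loop (chr1:91415977-91459351), had 15.3, 58.1, 77.7, 59.2, 38.7, 4.57, 13.7 and 53.3 CPM, so that only the ZT20 library lay under 10 CPM. Its peak was at ZT8.70 ± 0.68 h, 3.70 h after food was opened, with an amplitude of 1.83 ± 0.35 (edgeR adjusted p = 0.00365). Cry1 (chr10:85131700-85185054) had 10.4, 14.6, 36.3, 32.7, 32.4, 13.9, 9.47 and 14 CPM. It kept to a plateau from ZT8 to ZT16, with a fitted peak at ZT11.8 ± 0.44 h and an amplitude of 1.01 ± 0.11 (edgeR adjusted p = 1.10e-05). Per1 had 80.9, 138, 70.7, 154, 136, 55.8, 93.7 and 134 CPM. Its ZT8 library was low between high ones at ZT4 and ZT12, and no 24 h rhythm was called (edgeR adjusted p = 0.596). Cry2 and Ciart (listed in the table as Gm129), a further repressor of BMAL1, were not called, with edgeR adjusted p of 0.0868 and 0.0645 and fitted peaks at ZT6.72 and ZT6.12.

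The PAR bZIP factors, which carry the clock to metabolic genes, included Dbp, with the largest amplitude of the called clock genes. Dbp (chr7:45705100-45710203) had 31.1, 73.6, 48.6, 9.03, 5.03, 11.5, 41.6 and 85.5 CPM. The highest library, ZT28, was 17.0 times the lowest, ZT16, with a fitted amplitude of 1.97 ± 0.12 and its peak at ZT4.11 ± 0.24 h (edgeR adjusted p = 4.92e-07). Tef (chr15:81802673-81826863) had 120, 232, 211, 134, 90.9, 69.8, 145 and 205 CPM, with an amplitude of 0.83 ± 0.08 and a peak at ZT6.21 ± 0.36 h (edgeR adjusted p = 0.000350). Nfil3, the repressor that competes with them for D-boxes, peaked in the dark phase, at ZT14.5 ± 1.00 h: it had 37.2 CPM at ZT12, 62.9 CPM at ZT16 and 15.1 to 18.2 CPM in the 6 other libraries (edgeR adjusted p = 0.00402). Its call was lost without the ZT16 library (edgeR adjusted p = 0.106). Hlf, the third PAR bZIP gene, had an edgeR adjusted p of 0.0763.

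The DEC repressors Bhlhe41 and Bhlhe40 peaked at ZT5.89 ± 0.64 h and ZT5.45 ± 0.93 h, with amplitudes of 0.82 ± 0.14 and 0.52 ± 0.13 (edgeR adjusted p = 0.0103 and 0.0491). The Bhlhe41 call was lost without ZT28 (edgeR adjusted p = 0.0535), and the Bhlhe40 call without any 1 of ZT4, ZT8, ZT12, ZT16, ZT20 or ZT28. The clock-controlled outputs Usp2, Wee1, Nampt and Por were not called (edgeR adjusted p from 0.202 for Wee1 to 0.955 for Nampt).

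Outside the clock lists 135 genes were called, and their peaks were spread over the day. Of these 135, 39 peaked in the 4 h bin around ZT12, at lights off, more than in any other bin. By 4 h bins of peak time, 25 of the 148 called genes peaked around ZT0, 20 around ZT4, 12 around ZT8, 41 around ZT12, 22 around ZT16 and 28 around ZT20. The ZT12 bin held 27.7% of the called genes and 20.7% of all genes tested, and the ZT8 bin held 8.11% and 14.2%. With the clock genes, 36 called genes belonged to 1 of the 44 gene lists.

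**Figure D2:**
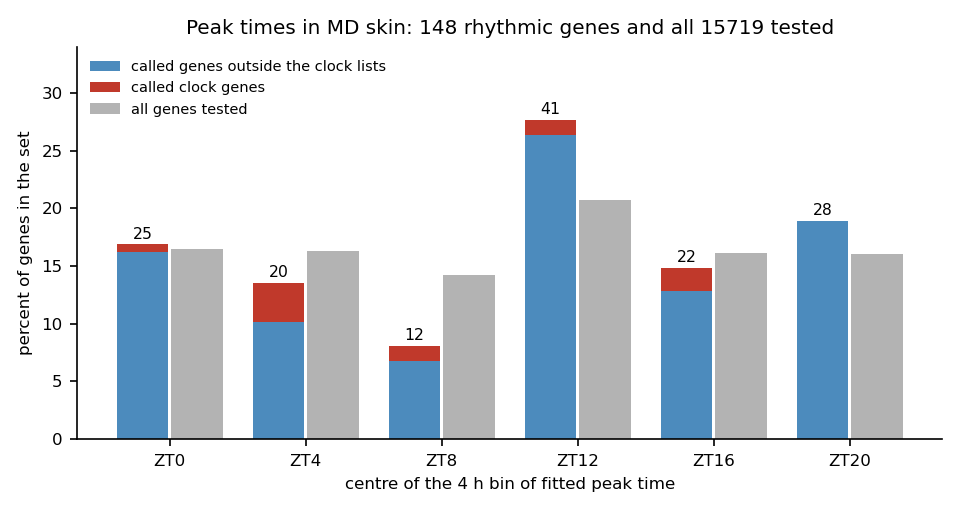
Percent of genes whose fitted curve peaked in each 4 h bin, for the 148 called genes (left bars, clock genes in red, numbers of genes on top) and all 15719 genes tested (grey bars). The ZT12 bin held the most called genes, 41, and the ZT8 bin the fewest, 12.

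The elastic fibre genes Fbn1, Fbn2 and Eln peaked late in the night. In the list of 23 non-collagen matrix genes, 6 were called by edgeR, against 0.942% of all genes, and 10 by DESeq2, against 3.14%. An unadjusted edgeR p under 0.05 was found for 12. The fitted peaks of 14 lay within 4 h of ZT19.6, as did 31.3% of all genes. Fbn1, fibrillin-1, the scaffold of elastic microfibrils (chr2:125300594-125506485), had 1108, 670, 356, 429, 820, 1334, 1159 and 679 CPM. It was lowest at ZT8 and highest at ZT20. Its levels at ZT24 and ZT28 lay 0.06 and 0.02 log2 above those at ZT0 and ZT4. Its amplitude was 0.95 ± 0.05 and its peak at ZT21.4 ± 0.17 h (edgeR adjusted p = 1.75e-05, called in all 8 leave-one-out fits). Fbn2, fibrillin-2, had 21.0, 4.68, 4.69, 9.82, 9.70, 26.8, 14.8 and 6.73 CPM, with a peak at ZT20.0 ± 0.80 h (edgeR adjusted p = 0.00121). Eln, the gene of elastin, had its highest values of 212 CPM at ZT0, 147 CPM at ZT24 and 136 CPM at ZT20 and a fitted peak at ZT21.3 ± 1.06 h (edgeR adjusted p = 0.0269). Spon2, a secreted matrix protein with roles in innate immunity, peaked at ZT18.6 ± 0.90 h with 41.3 CPM at ZT20 and 3.44 CPM at ZT28 (edgeR adjusted p = 0.0132). To complete the list, Thbs1, the adhesive glycoprotein thrombospondin-1, peaked at ZT0.43 ± 1.16 h and Ecm1 at ZT13.4 ± 0.79 h (edgeR adjusted p = 0.0338 and 0.0362). Calls were lost for Eln without ZT0, ZT4 or ZT12, for Spon2 without ZT4, ZT20 or ZT28, for Thbs1 without ZT4, ZT12 or ZT28, and for Ecm1 without ZT0, ZT4, ZT8, ZT12, ZT16 or ZT24, and the list's count ran from 2 (without ZT4) to 7 over the leave-one-out fits. Of 15 collagens none was called by edgeR or by DESeq2, 6 had an unadjusted p under 0.05, and the fitted peaks of 13 lay within 4 h of ZT17.7, as did 32.3% of all genes. Collagens are the bulk product of fibroblasts, and Col15a1 (143 CPM at ZT28 to 277 CPM at ZT20) had the smallest p of the list (edgeR adjusted p = 0.201).

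Cirbp, a gene known to answer cold, and Hspa8, a chaperone of the heat shock list, peaked in opposite phases. Cirbp, an RNA-binding protein induced by mild cold (chr10:80165990-80172786), had 44.6, 42.2, 16.7, 16.7, 17.1, 32.1, 45.4 and 39.3 CPM. The 3 libraries from ZT8 to ZT16 lay under 18 CPM and the 5 others above 32 CPM, and the peak was at ZT0.55 ± 0.46 h with an amplitude of 0.86 ± 0.10 (edgeR adjusted p = 0.00175). Rbm3, the other gene of this pair, had 49.0 CPM at ZT16 and 114 CPM at ZT28 as its lowest and highest values (edgeR adjusted p = 0.138). Hspa8, the constitutive HSP70 chaperone (chr9:40801276-40805202), had 1028, 998, 1770, 1677, 1829, 1115, 995 and 1142 CPM. It was high in the same 3 libraries in which Cirbp was low, with a peak at ZT12.4 ± 0.67 h (edgeR adjusted p = 0.0210), and its call was lost without ZT4 or ZT16. Of the 20 heat shock genes 1 was called by edgeR, against 0.942% of all genes, and 5 by DESeq2, against 3.14%. A total of 11 had an unadjusted p under 0.05 (15.7% of all genes), and the fitted peaks of 18 lay within 4 h of ZT11.9, as did 37.0% of all genes. The endoplasmic reticulum list had 2 of 18 called by edgeR and 2 by DESeq2 (0.942% and 3.14% of all genes). Calr, the lectin chaperone calreticulin, had 256 CPM at ZT4 and 588 CPM at ZT12 as its lowest and highest values (edgeR adjusted p = 0.0299), and Sdf2l1, a cofactor of BiP, 5.50 CPM at ZT28 and 15.2 CPM at ZT12 (edgeR adjusted p = 0.0492). The Calr call was lost without ZT0, ZT4, ZT12 or ZT28 and the Sdf2l1 call without those or ZT8 or ZT20.

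Several genes of glycogen and fat handling were highest between ZT8, 3 h into the food window, and ZT16. Ppp1r3c, which targets protein phosphatase 1 to glycogen and favours its storage (chr19:36731731-36736604), had 64.8, 87.7, 215, 283, 352, 136, 100 and 54.6 CPM. Its amplitude was 1.22 ± 0.19 and its peak at ZT13.8 ± 0.65 h (edgeR adjusted p = 0.00603, called in all 8 leave-one-out fits). Ppp1r3b, a second glycogen-targeting subunit, had 2.98, 4.15, 29.3, 19.2, 3.77, 6.14, 4.27 and 4.52 CPM. Only ZT8 and ZT12 were above 7 CPM, so that the values form a pulse rather than a cosine (edgeR adjusted p = 0.0423, lost without ZT0, ZT4, ZT8, ZT12, ZT24 or ZT28). These were the 2 called of 13 glycogen genes, by edgeR and by DESeq2, against 0.942% and 3.14% of all genes. G0s2, an inhibitor of the fat lipase ATGL (chr1:193272160-193273188), followed the same pulse with 5.83, 10.7, 55.6, 29.1, 6.74, 13.5, 9.85 and 13.6 CPM (edgeR adjusted p = 0.0168, lost without ZT0 or ZT8), as the only called gene of 16 in lipolysis and glyceroneogenesis. Angptl8 (listed as Gm6484), an inhibitor of lipoprotein lipase activity that is known to rise with feeding in liver and fat, had 0.570, 0.634, 11.9, 3.66, 0.653, 1.13, 0.810 and 0.491 CPM. Its ZT8 library was the highest and ZT12 the next, with 1.13 CPM or less in the others. The edgeR adjusted p was 0.0445, and the call was lost without ZT0, ZT4, ZT8, ZT12, ZT24 or ZT28. Pnpla3, a lipid droplet enzyme driven by SREBP1c in liver, and Dhcr7, the last enzyme of cholesterol synthesis, peaked at ZT12.3 ± 0.91 h and ZT12.6 ± 0.68 h (edgeR adjusted p = 0.0241 and 0.0269), each the only edgeR call of its list, of 21 fatty acid and triglyceride genes and of 20 cholesterol genes. DESeq2 called 3 and 1 genes of these lists, and 1 of the lipolysis list, against 3.14% of all genes (0.942% by edgeR). Without ZT0, ZT4, ZT12 or ZT28 both calls were lost, and the Dhcr7 call also without ZT8 or ZT16. The adipocyte list summed to 1377 CPM at ZT8 and 1665 CPM at ZT12, inside its range of 1213 to 1918 CPM.

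A 12 h component, which a curve of 24 h cannot hold, was called for 2 of 15719 genes (0.0127%) by edgeR, with 1028 genes at an unadjusted p under 0.05. Pck1, the enzyme of gluconeogenesis and glyceroneogenesis that insulin represses (chr2:173153073-173159274), had 27.8, 67.7, 11.8, 12.3, 97.4, 48.3, 51.2 and 51.9 CPM. It was lowest at ZT8 and ZT12 and highest at ZT16 (edgeR adjusted p = 0.0202). Ddit4, an inhibitor of mTOR signalling (chr10:59949675-59951770), had 35.4, 91.9, 28.3, 87.4, 103, 24.6, 44.7 and 61.2 CPM, with low values at ZT0, ZT8 and ZT20 (edgeR adjusted p = 0.0416). In the MD libraries alone both had an edgeR adjusted p of 0.0598 for this component, and 2 other genes were called. Next in order, and named after their values were seen, came Angptl4, Txnip, Il1b, Ctgf and Plau, all at an edgeR adjusted p of 0.0508. Angptl4, a lipoprotein lipase inhibitor induced by fasting, had 54.0, 54.9, 17.4, 12.6, 144, 65.6, 51.8 and 40.1 CPM. Txnip, an inhibitor of glucose uptake, had 1362, 1633, 435, 722, 2216, 774, 920 and 1118 CPM, and both were at their highest at ZT16, 7 h after food was removed. The fatty acid oxidation and PPAR list had 21 measured genes, the insulin and FOXO list 15 and the glycolysis list 19. They had 0 called 24 h rhythms by edgeR or DESeq2, against 0.942% and 3.14% of all genes. At an unadjusted p under 0.05 they had 6, 4 and 2 genes, against 15.7% of all genes.

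Cell cycle lists showed opposite fitted phases. Of 25 mitosis genes 1 was called by edgeR (0.942% of all genes), 3 with the run code as a term (0.172%) and 6 by DESeq2 (3.14%). The edgeR call was Cenpe, the kinetochore motor, with 14.5, 7.51, 5.87, 5.67, 8.44, 12.6, 10.1 and 6.87 CPM and a peak at ZT21.4 ± 0.56 h (edgeR adjusted p = 0.0338, lost without ZT0, ZT4, ZT8, ZT12, ZT20 or ZT28). The list held 13 genes at an unadjusted p under 0.05 (15.7% of all genes), with fitted peaks within 4 h of ZT19.8 for 22 of the 25, against 31.3% of all genes. The 26 genes of DNA replication and S phase had 0 calls by edgeR and 1 by DESeq2, 7 genes at an unadjusted p under 0.05, and fitted peaks within 4 h of ZT7.41 for 25, against 31.4% of all genes. Ccne2, a cyclin of S phase entry, had 10.003 CPM at ZT8 and 5.04 CPM at ZT0 as its highest and lowest values (edgeR adjusted p = 0.127). All 20 genes of ribosome biogenesis had fitted peaks within 4 h of ZT7.11 (30.9% of all genes), 10 of them at an unadjusted p under 0.05 and 0 called by edgeR or DESeq2, and their median level was lowest at ZT16. Members of a list share the same 8 libraries, and these counts are a description.

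The lists of p53 targets and nucleotide excision repair together held 1 edgeR call. Cdkn1a, the p53 target p21 that halts the cell cycle (chr17:29090979-29100722), had 57.2, 64.7, 99.4, 116, 135, 76.5, 68.9 and 71.3 CPM, with a peak at ZT13.2 ± 0.57 h and an amplitude of 0.55 ± 0.08 (edgeR adjusted p = 0.000250). It was called in all 8 leave-one-out fits, in the MD libraries alone (edgeR adjusted p = 0.0196) and with the run code as a term (edgeR adjusted p = 0.0381), and was the only call, by edgeR and by DESeq2, of 15 measured p53 targets (0.942% and 3.14% of all genes). Among the p53 targets 5 had an unadjusted p under 0.05 (15.7% of all genes). Of 17 nucleotide excision repair genes 0 were called by edgeR or DESeq2, and 1 had an unadjusted p under 0.05. Xpa, the damage-binding factor of that pathway, named here for its role, had 13.1, 8.14, 6.54, 8.30, 9.05, 7.86, 6.27 and 8.94 CPM. Its amplitude of 0.12 ± 0.19 was smaller than its error (edgeR adjusted p = 0.787). Rev1, a polymerase that copies past DNA lesions, lay outside these lists and peaked at ZT7.77 ± 0.51 h with 47.7 CPM at ZT8 and 30.0 CPM at ZT20 (edgeR adjusted p = 0.0197, lost without ZT4, ZT8 or ZT20).

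The xenobiotic and antioxidant list had 4 of 24 genes called by edgeR (0.942% of all genes) and 6 by DESeq2 (3.14%), with 0 in the MD libraries alone (0.146%) and 1 with the run code as a term (0.172%). Txnrd1, thioredoxin reductase, and Cyp2e1, a microsomal oxidase of small molecules, peaked at ZT3.97 ± 1.03 h and ZT4.19 ± 1.26 h. Cyp2e1 had 213, 275, 184, 121, 125, 143, 128 and 231 CPM, so that the ZT24 library was 0.74 log2 lower than ZT0. Fmo1, a flavin monooxygenase, peaked at ZT9.51 ± 1.14 h and Aldh3a1, an aldehyde dehydrogenase, at ZT11.4 ± 0.43 h. Adjusted p-values from edgeR ran from 0.0372 to 0.0493, and every call was lost in at least 5 of the 8 leave-one-out fits. The Aldh3a1 call was lost without any 1 library, the Fmo1 call without ZT4, ZT12, ZT20, ZT24 or ZT28, the Txnrd1 call without ZT4, ZT8, ZT12, ZT16, ZT24 or ZT28, and the Cyp2e1 call without any library but ZT24.

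Slow muscle genes gave the largest amplitude of the time course at a very low level. Myh7, the slow myosin heavy chain (chr14:54970684-54994626), had 3, 7, 15, 145, 205, 38, 9 and 1 exon counts, or 0.132, 0.341, 0.838, 8.85, 10.3, 1.87, 0.384 and 0.0491 CPM. It was high at ZT12 and ZT16 only, with a fitted amplitude of 2.87 ± 0.30 and a peak at ZT14.6 ± 0.43 h (edgeR adjusted p = 0.00134, called in all 8 leave-one-out fits). Myl2, its light chain, had 66 and 35 counts at ZT12 and ZT16 and from 0 to 15 elsewhere (edgeR adjusted p = 0.0338, lost without ZT0, ZT12 or ZT28). These were the 2 edgeR calls among 11 slow muscle genes (0.942% of all genes), of which DESeq2 called 3 (3.14%) and 7 had an unadjusted p under 0.05 (15.7%). The sum of the list ran from 263 CPM at ZT4 to 348 CPM at ZT8, but its members moved more. Their median log2 CPM minus the member's own mean was -0.60 at ZT0, 0.80 at ZT12 and 1.06 at ZT16. The median amplitude of the members was 0.75 log2, against 0.15 for all genes. The fast muscle list was at 26004 CPM at ZT12 and 31176 CPM at ZT16, its highest value, and its part in the slow muscle result was not tested. Lrrc30, with 1.58, 6.39, 14.5, 17.7, 23.7, 6.53, 3.37 and 4.47 CPM, peaked at ZT12.5 ± 0.72 h (edgeR adjusted p = 0.0100), and Mylk4, a myosin light chain kinase, with 54.8, 136, 147, 114, 52.9, 24.9, 58.6 and 118 CPM, at ZT7.63 ± 0.38 h (edgeR adjusted p = 0.00626, lost without ZT20). No fast muscle gene was called by edgeR or DESeq2, and 0 of 15 had an unadjusted p under 0.05.

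Of the 12 genes outside the clock with the smallest p, those not yet described were AK179066, Rnf144a, Klhl13, A630005I04Rik, Bcap29, Rprl3 and Rpph1. The transcript AK179066 had 62, 80, 17, 1, 5, 26, 75 and 61 exon counts and a peak at ZT1.63 ± 0.41 h (edgeR adjusted p = 1.10e-05). Rnf144a, a ubiquitin ligase, had 33.8, 18.4, 14.8, 22.1, 40.0, 36.5, 25.2 and 15.96 CPM, with a peak at ZT18.8 ± 0.46 h (edgeR adjusted p = 0.000134). Klhl13, an adaptor of a ubiquitin ligase that acts in mitosis, peaked at ZT20.6 ± 0.64 h, A630005I04Rik at ZT16.3 ± 0.42 h and Bcap29, an endoplasmic reticulum membrane protein, at ZT1.02 ± 0.71 h (edgeR adjusted p = 0.00228, 0.00288 and 0.00301). These 5 were called in all 8 leave-one-out fits. Among the smallest p-values of each bin were also Phldb2 and Nipal1 near ZT2, Ptp4a1, a phosphatase, at ZT5.45 ± 0.36 h, Angptl2, a secreted angiopoietin-like protein, at ZT5.14 ± 0.86 h, Ankrd28 at ZT2.07 ± 0.86 h, Naa60 (listed as Nat15), an acetyltransferase, at ZT9.49 ± 0.38 h, and Nt5dc2 at ZT10.2 ± 0.59 h. Htra3, a secreted protease, peaked at ZT15.5 ± 0.70 h. Of these 8 genes, only Naa60 was called in all 8 leave-one-out fits: calls were lost without ZT12 for Nipal1 and Nt5dc2, without ZT16 for Angptl2 and Htra3, without ZT12 or ZT16 for Phldb2, without ZT4, ZT16 or ZT28 for Ankrd28, and without those or ZT20 for Ptp4a1.

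Small structured RNAs, a family picked out after its values were seen, had most of their fitted peaks near lights off. Of 64 such genes by symbol, 7 were called, against 0.942% of all genes, and the fitted peaks of 53 (82.8%) lay between ZT10 and ZT14, as did 20.7% of all genes. Rpph1, the RNA of ribonuclease P (chr14:50807447-50807771), had 6728, 12195, 30971, 36637, 23132, 19970, 6468 and 14344 CPM and a peak at ZT12.1 ± 0.72 h (edgeR adjusted p = 0.00267). Rnu11 and Rnu12, RNAs of the minor spliceosome, had 81.0 and 61.2 CPM at ZT12, against 8.62 and 5.97 CPM at ZT24 (edgeR adjusted p = 0.00448 and 0.0281). Rprl3, Snora81, Snora23 and Vaultrc5 were the other called members, with peaks from ZT11.4 to ZT12.7. Without the ZT12 library the calls of Rnu11, Rnu12, Rprl3, Snora23 and Vaultrc5 were lost, that of Rnu12 also without ZT0, ZT4, ZT24 or ZT28 and that of Snora23 without ZT0, ZT24 or ZT28. With the run code as a term 1 of the 64 was called. The family took 1.30%, 2.87%, 5.71%, 5.96%, 3.93%, 4.49%, 1.78% and 2.72% of the scaled counts, and the ZT12 library also had the fewest exon counts and the highest ratio of antisense to exon counts (13.2%, against 8.81% to 11.8% in the 7 others). The part of library content in this result was not tested.

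**Figure D3:**
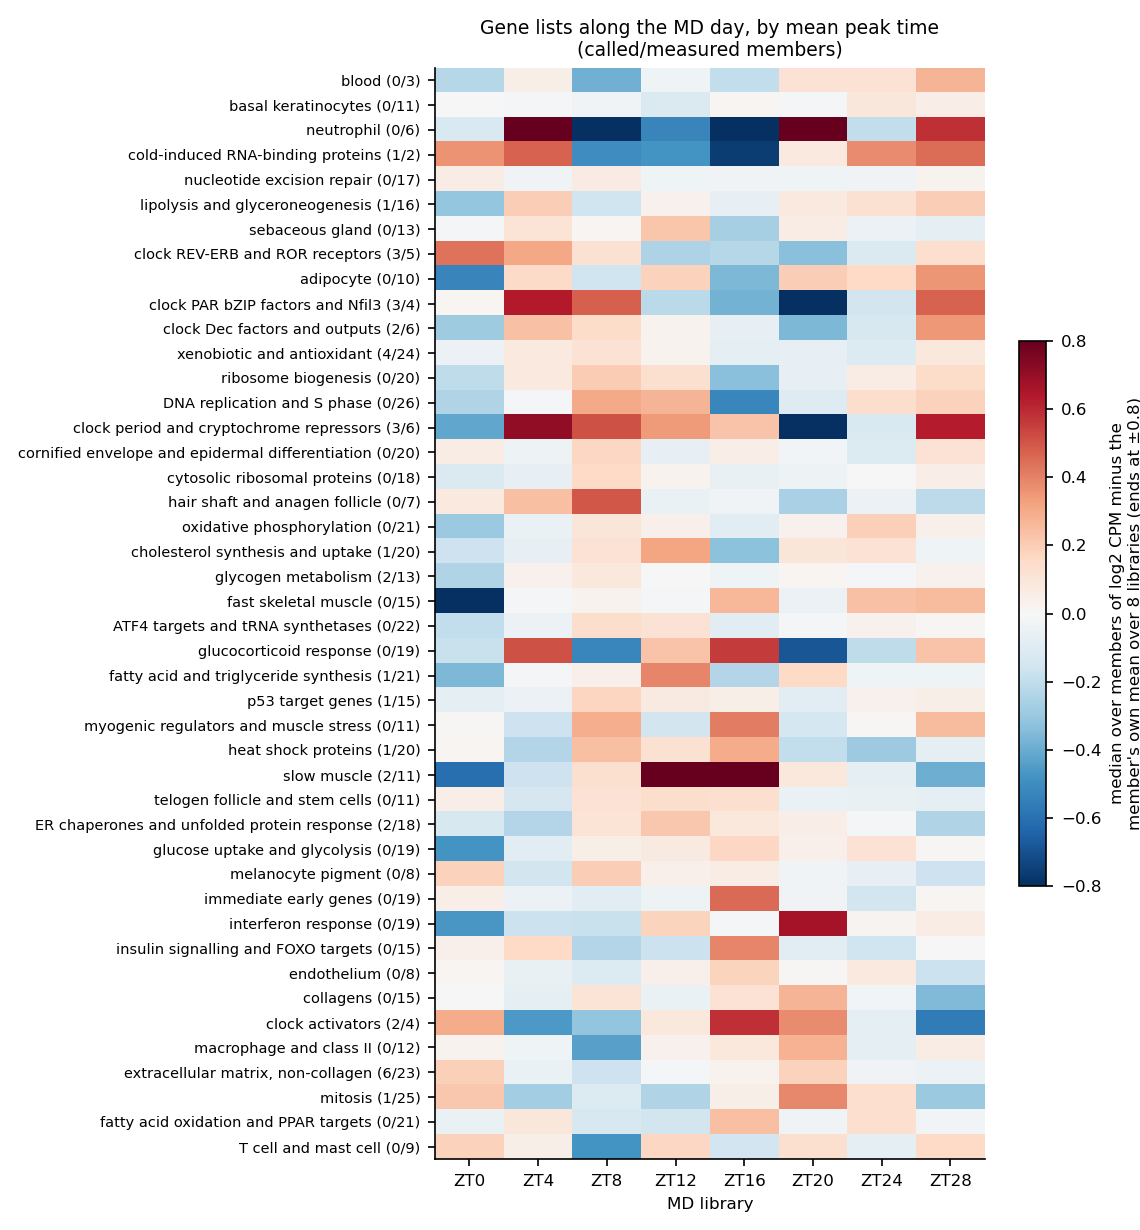
Median over the members of each of 44 gene lists (rows, ordered by the circular mean of the members' fitted peak times, called and measured members in brackets) of log2 CPM minus the member's own mean, in the 8 MD libraries (columns). Lists with similar mean peak times stand next to each other. At ZT0 the median of the fast muscle list was -0.87 log2. The largest departures were 2.06 log2 in the neutrophil list at ZT4 and 1.06 log2 in the slow muscle list at ZT16.

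Calls in the cell type and tissue lists are set beside shares over all genes of 0.942% by edgeR and 3.14% by DESeq2. At an unadjusted p under 0.05 the share was 15.7%. Lists this short can hold 0 calls at such shares. Basal keratinocyte genes (11), cornified envelope genes (20), sebaceous gland genes (13), telogen follicle genes (11), macrophage and class II genes (12), endothelial genes (8) and adipocyte genes (10) had 0 calls by edgeR, and by DESeq2 there was 1 call each in the cornified envelope, sebaceous gland and macrophage lists. They held 1, 3, 1, 2, 3, 1 and 1 genes at an unadjusted p under 0.05. The neutrophil list (6 measured) was at 73.9 CPM at ZT4, against 17.5 to 38.4 CPM in the 7 others. Its smallest p belonged to S100a9, a calprotectin subunit, with 15.5 CPM at ZT4 and 0.671 CPM at ZT12 (edgeR adjusted p = 0.191). In this list 0 genes were called by edgeR or DESeq2, and 3 had an unadjusted p under 0.05. With the run code as a term 3 were called, against 0.172% of all genes. Fitted peaks of 11 of 12 macrophage and class II genes lay within 4 h of ZT19.15, as did 31.3% of all genes, and Adgre1 (listed as Emr1), the macrophage receptor F4/80, had its highest value of 49.7 CPM at ZT20 (edgeR adjusted p = 0.0915). The glucocorticoid response list had 0 calls by edgeR and 1 by DESeq2 among 19 genes, and its median level was 0.51 and 0.56 log2 above its mean at ZT4 and ZT16 and 0.52 and 0.68 log2 under it at ZT8 and ZT20. The lists of amino acid response, oxidative phosphorylation, ribosomal protein, interferon, immediate early, hair shaft, pigment, muscle regulator, T cell and mast cell, and blood genes had 0 calls by edgeR or DESeq2, with 0 to 5 genes at an unadjusted p under 0.05.

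The 2 repeats of a clock time agreed to different degrees. ZT28 and ZT4 differed by a median of 0.137 log2 across genes, the smallest value of all 28 pairs of MD libraries. ZT24 and ZT0 differed by a median of 0.264 log2, larger than in 24 of the 28 pairs. For pairs at other clock times the median of this value was 0.204 and its range 0.146 to 0.285. Differences past 1 log2 were found in 218 genes (1.39%) between ZT28 and ZT4, with 66 higher and 152 lower at ZT28. Between ZT24 and ZT0 there were 562 (3.58%), with 351 higher and 211 lower at ZT24. The nearest library to ZT0 was ZT4 (0.183), which carried the same run code, and the nearest to ZT24 was ZT20 (0.146), with another code.

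**Figure D4:**
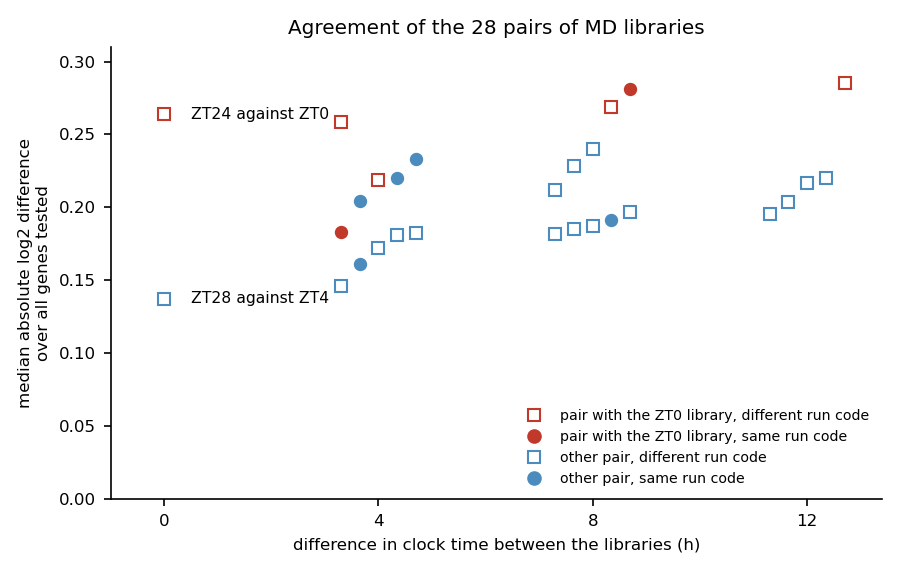
Median absolute log2 difference over 15719 genes for each of the 28 pairs of MD libraries, against their difference in clock time in hours (points are spread sideways so that they can be told apart); red marks pairs with the ZT0 library and filled points pairs with the same run code. The pair of ZT28 and ZT4, at 0.137, is the lowest of all, and the pair of ZT24 and ZT0, at 0.264, lies among the highest, as do most pairs with ZT0.

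By list median, the ZT24 and ZT0 libraries differed most in fast muscle, adipocyte and energy genes. The fast muscle list was higher at ZT24 than at ZT0 in 14 of 15 genes, with a median difference of 0.95 log2. Over all genes 51.1% were higher, with a median of 0.01 log2. Parvalbumin (Pvalb), the calcium buffer of fast fibres, had 987 CPM at ZT24 and 381 CPM at ZT0. The adipocyte list was higher in 10 of 10 genes (median 0.67), oxidative phosphorylation in 21 of 21 (0.56), and glycolysis in 18 of 19 (0.68). Between ZT28 and ZT4 the medians of these lists were 0.29, 0.16, 0.10 and 0.02 log2, and 50.3% of all genes were higher at ZT28. Hox genes, which keep a record of body position, went the other way: 5 of 27 were higher at ZT24 than at ZT0, with a median difference of -0.37, and 9 of 27 at ZT28 than at ZT4, with a median of -0.15. This family was picked out after its values were seen. The medians of the clock lists between ZT24 and ZT0 ran from -0.37 for the activators to 0.18 for the PAR bZIP list.

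Among genes of at least 1 CPM on average, the largest positive differences between ZT24 and ZT0 belonged to Nnat, an imprinted gene of membrane calcium handling, with 5.46 CPM at ZT24 and 0.219 CPM at ZT0 (log2 difference 4.07), and to GU332589, Gm20594, Rrad, Mir1949 and Snora15 (2.60 to 3.596). Rrad, a small GTPase of muscle, was high on both repeats: it had 29.6 and 22.6 CPM at ZT24 and ZT28, against 4.16 and 7.07 CPM at ZT0 and ZT4, and between 5.26 and 11.0 CPM at the other times. The largest negative differences were those of Gm20172, Cdh9, Cyp2g1, Plcxd3, Tdo2 and AK163440 (-2.43 to -1.90). Between ZT28 and ZT4, Mug1, a protease inhibitor of plasma, had 0 counts at ZT28 and 24 counts at ZT4, and Krt71, a keratin of the inner root sheath, had 2 and 14 counts. S100a8, the partner of S100a9, had 2.95 CPM at ZT28 and 11.1 CPM at ZT4, and Gm53, Snord104 and 5830416P10Rik were the other negative differences of the 6 largest. Ccl12, Rrad, Mmp12, Fanca, AK199574 and Cenpk had the largest positive differences, from 1.45 to 1.81. A total of 25 genes were past 1 log2 in both pairs in the same direction and 24 in opposite directions.

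A term for the second day over both repeats was called for 0 of 15719 genes by edgeR (0%), with 1553 genes (9.88%) at an unadjusted p under 0.05 and a smallest adjusted p of 0.479, on 3 residual degrees of freedom. Rrad had an unadjusted p of 0.000503 and an edgeR adjusted p of 0.479. Without the ED ZT24 and EN ZT0 libraries 110 genes were called, on 1 residual degree of freedom.

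Among the 13 called clock genes, whose calls used the repeat libraries too, the median absolute difference was 0.139 log2 between ZT28 and ZT4 and 0.175 log2 between ZT24 and ZT0. The largest were Bhlhe41 between ZT28 and ZT4 (0.52) and Bhlhe40 between ZT24 and ZT0 (0.64).

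The second day was then left out of the calls and set against the curves of the first. With MD ZT24 and ZT28 held out, 96 genes were called (0.611%), of which 10 were clock genes. Both held-out levels lay on the side of the mean that the curve gave for 9 of the 10 clock genes and for 46 of the 86 other genes, against 29.4% of all genes tested. The exception among the clock genes was Tef. For the clock genes the curve missed the held-out levels by a median of 0.162 log2, and the mean of the first 6 libraries by 0.834. For the 86 others the curve missed by a median of 0.271 log2 and the mean of the first 6 libraries by 0.193, so that the flat guess was nearer. The curve was nearer than that mean for 50 of the 86 at ZT28 and for 31 of the 86 at ZT24. Dbp was predicted at 0.87 and 1.93 log2 above the mean and measured at 1.07 and 2.11, and Cirbp was predicted at 0.85 and 0.53 and measured at 0.82 and 0.61. G0s2, Cyp2e1, Eln and Rnf144a were among the 41 genes with a held-out level on the other side.

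**Figure D5:**
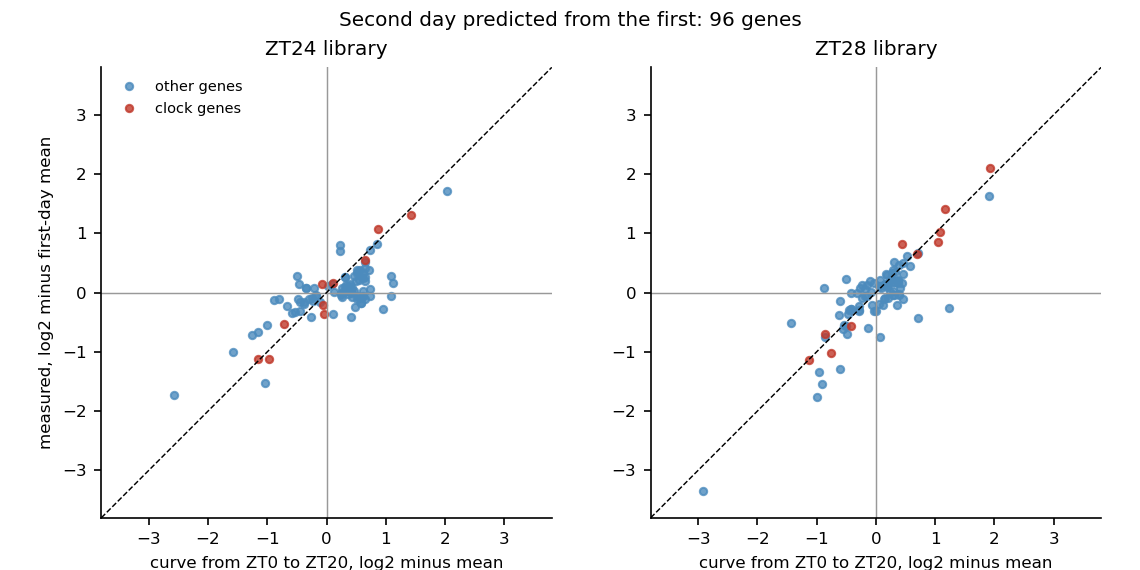
Measured level at ZT24 (left) and ZT28 (right) against the level given by curves fitted without these libraries, both as log2 CPM minus the mean of the first 6 MD libraries, for the 96 genes called without them (red, 10 clock genes; blue, 86 others; dashed line, equality). The clock genes lie along the dashed line, while many others lie nearer to 0 than predicted at ZT24.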

How the data were processed

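RNA of 2 to 4 animals was pooled for each library and built with a stranded total RNA kit, per the labels' protocols. The authors deposited raw read counts per gene model, with exon, intron and antisense rows apart, and a table of RPKM values, which its name ties to conditional quantile normalization. The submitters' processing notes list TopHat2, SAMtools, HOMER and build mm10, without versions; the sources used here do not give the counting settings.

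Exon rows were used (31872 models, 9289 without a count). Of rows sharing a symbol the one with the highest total was kept (29758 symbols, 2114 rows left out). Genes passing filterByExpr (minimum count 10, minimum total 15) were tested, 15719 in all, of which 15096 matched RefSeq symbols; overlapping genes and near-identical copies may share reads. MD libraries held 20098335 ± 1842617 exon counts (SD, n = 8). edgeR 4.0.16 (R 4.3.3, TMM scaling) fitted a mean, a 24 h cosine and a 24 h sine per feeding group to all 24 libraries, and the MD terms were tested by quasi-likelihood with 15 residual degrees of freedom and Benjamini-Hochberg adjustment at 0.05. Amplitude and peak time came from least squares on log2 CPM (prior count 2) of the 8 MD libraries, with delta-method errors. The 12 h terms left 9 and the second day term 3 residual degrees of freedom. Alternatives were DESeq2 1.42.0, limma 3.58.1 on log2(RPKM + 0.1), other scalings and filters, fewer libraries and the run code of the labels. The fits were tested on simulated data. Python 3.11.15 with numpy 2.4.6, pandas 2.3.3, scipy 1.17.1 and matplotlib 3.10.9 made the summaries and figures.

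The MD libraries and the 44 gene lists (655 entries, 649 in the table, 628 tested) were chosen with earlier results of these data known. Genes named are all clock list members; outside them the 12 called genes with the smallest p, the 12 with the largest amplitude at a mean of at least 1 CPM, the 4 with the smallest p per 4 h bin, up to 4 called members per list (otherwise the member with the smallest p), the 6 largest second day differences per pair and direction, and called 12 h genes; others are marked as chosen after their values were seen. Items withheld from the text are counted but not reported here by name. Promoter windows are from RefSeq, GRCm38.p6, the assembly behind mm10.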

Additional observations from a re-analysis of the deposited data

Results flagged for a closer look

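Of 170 values compared over the 8 MD libraries, 13 had a highest or lowest library whose gap to its nearest neighbour took a larger part of the whole range than Dixon's 95% limit for 8 samples allows. Chance gives about 1 such gap in 20 values.

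The ZT0 library was low in 3 of them. The summed CPM of the fast muscle list was 16086 at ZT0, against 25211 to 31176 in the 7 others (gap 0.605). Pvalb, the calcium buffer of fast fibres, had 381 CPM at ZT0 and 898 to 1261 CPM elsewhere (0.716), and the glycogen list summed to 1116 CPM (0.542).

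The ZT16 library, taken 7 h after food was removed, was high in 4 sums. Fatty acid oxidation and PPAR targets reached 2666 CPM there (gap 0.626), insulin signalling and FOXO targets 2217 CPM (0.578), immediate early genes 1549 CPM (0.671) and the endothelium 463 CPM (0.595). Angptl2 was low in the same library, with 71.0 CPM against 100.2 to 135 CPM (0.535).

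The ZT8 library was high in the hair shaft sum, at 73.2 CPM (gap 0.651), and within it in Krt71, a keratin of the inner root sheath, with 10.2 CPM against 0.0982 to 0.683 CPM (0.658). It was also high in the slow muscle sum (0.603) and in Awat2, a wax synthase of the sebaceous gland, with 40.6 CPM against 18.4 to 26.3 CPM (0.551). The ZT4 library was high in the neutrophil sum, at 73.9 CPM (0.63).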

How the results depend on the processing

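Against the 148 genes with a 24 h rhythm, other counts were 237 with no filter on low counts (22049 genes tested), 494 by the DESeq2 likelihood ratio test (148 of them shared), 23 from the MD libraries alone, 96 without MD ZT24 and ZT28, 27 with the run code as a term and 60 for any difference among 6 clock times. Leaving out 1 MD library gave 51 (without ZT4), 60 (ZT28), 67 (ZT12), 91 (ZT0) and up to 187 (ZT24). Counts of 133 to 150 came from other scalings, a minimum of 1 CPM, limma on RPKM (133), added 12 h terms, summed rows and the fit without ED ZT24 and EN ZT0 (144). Such counts did not always hold the same genes. Of the 148 genes, 144 were also called with upper quartile scaling, 116 without ED ZT24 and EN ZT0 and 88 by limma on RPKM. Without MD ZT24 and ZT28, 70 of the 148 were called. The cause of the larger shifts was not tested. Of 59 named genes with a call, 24 kept it in all 8 leave-one-out fits, 21 in the MD libraries alone, 16 with the run code and 59 by DESeq2. In no fit did the peak of a named called gene move by more than 6 h. With a prior count of 0.5 the largest change of an amplitude among called genes was 1.35 times (AK081271).

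The second day term gave 0 genes also with cosine terms (1032 at an unadjusted p under 0.05), and 110 genes (1624) without ED ZT24 and EN ZT0, on 1 residual degree of freedom. The share of held-out genes with both levels on the predicted side was 57.9% with DESeq2 size factors and 57.3% with TMM. No paired analysis was possible because each group had 1 library per time and the replicate numbers only give the order of sampling.

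With 1 pool per time, no error can be given for a single time. For genes such as Myl2 and Mug1, with 0 to 66 and 0 to 110 counts, counting error adds to the spread.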

Other observations

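Some called genes outside the lists belong to the making of collagen and to chemokine signals, and they are named here after their values were seen. Serpinh1, the collagen chaperone HSP47, had 334, 286, 494, 668, 692, 729, 466 and 295 CPM from ZT0 to ZT28, with a peak at ZT15.7 ± 0.75 h (edgeR adjusted p = 0.0309). P4ha1, a subunit of the enzyme that hydroxylates collagen, peaked at ZT15.2 ± 0.85 h with 83.7 CPM at ZT16 and 41.1 CPM at ZT28 (edgeR adjusted p = 0.0215). Creb3l1, a membrane-bound transcription factor known for driving collagen secretion in bone, peaked at ZT14.3 ± 0.95 h (edgeR adjusted p = 0.0137). Calls were lost for Serpinh1 without ZT0, ZT4, ZT12, ZT20 or ZT28, for P4ha1 without ZT4, ZT16 or ZT28, and for Creb3l1 without ZT4, ZT12 or ZT28. Thbs2, a matrix glycoprotein, had 380, 353, 218, 198, 189, 391, 346 and 349 CPM, low from ZT8 to ZT16 and high elsewhere, with a peak at ZT0.25 ± 0.72 h (edgeR adjusted p = 0.00603, called in all 8 leave-one-out fits).

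Of the chemokines, Ccl11, which attracts eosinophils, peaked at ZT3.26 ± 0.90 h with 30.7 CPM at ZT28 and 12.7 CPM at ZT16 (edgeR adjusted p = 0.0379). Ccl19, which guides dendritic and T cells, peaked at ZT10.6 ± 1.09 h with 16.7 CPM at ZT12 and 4.16 CPM at ZT0 (edgeR adjusted p = 0.0362). Cxcl14, made by skin epithelium, had 98.5, 64.4, 49.2, 79.1, 79.4, 108, 127 and 62.5 CPM and a peak at ZT20.5 ± 0.86 h (edgeR adjusted p = 0.0197). The ZT4 and ZT28 libraries were needed for all 3 calls, together with ZT8 for Cxcl14, ZT12, ZT16 and ZT20 for Ccl11, and ZT0, ZT8 and ZT12 for Ccl19.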
